A study of Mus musculus with 24 samples.

Results

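The genes described here are 10 members of the FGF4 and ERK feedback circuit of embryonic stem cells, chosen by gene symbol: Fgf4, Fgfr1, Fgfr2, Dusp4, Dusp6, Spry2, Spry4, Spred1, Etv4 and Etv5. All 10 were present among the 19780 genes of the control table and the 19979 genes of the paused table, out of 20625 genes in either. The study sequenced poly(A) RNA from 24 libraries of E14 mouse embryonic stem cells grown on gelatin in serum with leukaemia inhibitory factor (LIF). Groups of 4 libraries came from wild-type cells, the Smad2 knockout line KO1 and the Smad2 knockout line KO2, each in control medium or after 12 h with 200 nM INK128, which blocks the growth-promoting kinase mTOR and puts these cells into a dormant, paused state. Serum and LIF were common to all 6 groups, and the labels do not say whether the libraries of a group came from separate cultures, so p-values may measure technical spread alone. A knockout line is a separate cell line whose other differences from the parent cannot be told apart from the loss of Smad2, and both lines stand in the label as knockouts without a description of the allele.

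The authors' deposited processed data used here are 1 results table per condition. It gives for each gene a normalized read count averaged over libraries, a log2 fold change with standard error (SE) and an adjusted p. It gives no value for any single library. Spread between replicates therefore enters only through the SE, and sequencing depth per library is unknown. Whether both knockout lines entered each comparison is not stated, so the SE may not measure spread between the lines. Changes are given as knockout over wild type on the log2 scale. This direction is an assumption resting on Smad2 itself, whose change in the authors' deposited tables was -0.35 (SE 0.07, adjusted p 6.5e-06) in control cells and -0.63 (SE 0.06, adjusted p 4.1e-26) in paused cells; the opposite reading would turn every direction below around. A gene is said to have risen or fallen where the adjusted p was under 0.05. In these bulk samples, fewer cells of a type and less RNA per cell cannot be told apart.

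Fibroblast growth factor 4 is secreted by the stem cells themselves and binds FGF receptors together with heparan sulfate, which switches on the RAS, RAF, MEK and ERK kinases. In mouse embryonic stem cells this autocrine signal prepares cells to leave naive pluripotency, and in the blastocyst it directs inner cell mass cells toward primitive endoderm. ERK activity also turns on genes that restrain it: the phosphatases Dusp4 and Dusp6 and the Sprouty and Spred proteins that act at the level of RAS and RAF. It also turns on the ETS factors Etv4 and Etv5, which are widely used as transcriptional readouts of FGF signalling. SMAD2 carries Nodal and activin signals, which the same cells also produce, to the nucleus.

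The ligand and several of its feedback genes moved in opposite directions. Fgf4 rose by about 1.4-fold with Smad2 loss in both conditions, whereas Dusp4, Dusp6, Spred1, Spry2 and Etv5 fell in both. Dusp6 had the steepest fall common to both conditions, to less than 50% of its wild-type level. Fgfr1 and Fgfr2 fell, and Spry4 rose slightly, in paused cells, and Etv4 passed the threshold in neither condition. In the authors' deposited table of control cells 1 of the 10 genes rose, 5 fell and 4 were not called, while 19.5% of all 19778 genes with a p rose and 21.9% fell. In the authors' deposited table of paused cells 2 rose, 7 fell and 1 was not called, against 20.5% and 22.0% of all 19979 genes. Those shares include many weakly expressed genes. All 10 genes exceeded an abundance minimum of 5 ppm of the summed counts. Of the genes above it, 51.6% were called for control cells and 53.0% for paused cells when p was adjusted anew over them, against 6 and 9 of the 10 genes, so the count in control cells lies near the background. Falls common to both conditions were found for 5 of the 10 genes and 16.0% of the 19134 genes in both tables, and a rise common to both for 1 of the 10 and 14.3% of all. Both shares include weakly expressed genes. They were not computed above the abundance minimum, where larger shares of genes were called. The median change of the 10 genes in the authors' deposited tables was -0.15 in control and -0.24 in paused cells, where the median was 0.00 in both over all genes and -0.05 in both over those above the abundance minimum. All calls of the 10 genes were lost when the authors' statistic was scaled so that its middle spread over all genes equals that of a standard normal variable, a setting that treats most genes as unchanged and divides the statistic by 2.76 in control and 2.80 in paused cells.

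**Figure D1:**
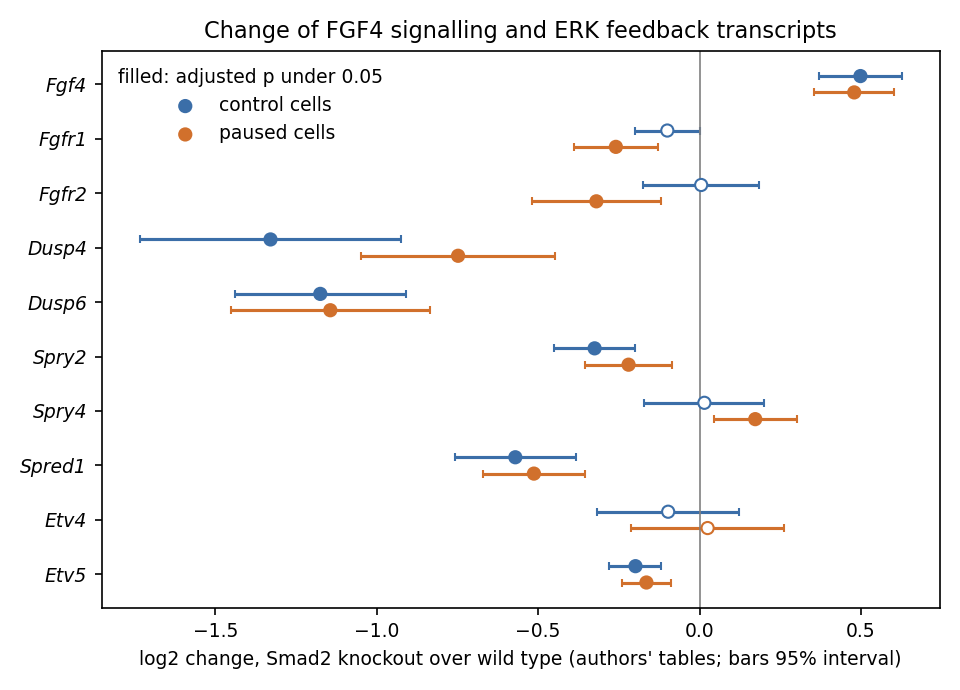
Log2 change of each gene (knockout over wild type, x axis) in the authors' deposited tables for control (blue) and paused (orange) cells, with 95% intervals computed from the deposited standard errors; filled points have an adjusted p under 0.05. Fgf4 lies to the right of 0 and Dusp4, Dusp6, Spry2, Spred1 and Etv5 lie to the left of 0 in both conditions, while both intervals of Etv4 span 0.

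Fgf4, the ligand, lies on chromosome 7 (144861386 to 144865245 in the RefSeq annotation of GRCm38.p6, plus strand). Its mean in the authors' deposited tables was 9746 normalized counts in control cells and 4662 in paused cells. In the authors' deposited table of control cells it was higher in the knockout by 0.50 (SE 0.07, adjusted p 6.2e-13), which is 141.3% of the wild-type level. The rise was 0.48 (SE 0.06, adjusted p 8.19e-13), or 139.4%, in the authors' deposited table of paused cells. These changes were nearly the same size: the paused change minus the control change was -0.02, with a 95% interval from -0.20 to 0.16. Of the 10795 genes above the abundance minimum in control cells, 5.19% had a change at least as high as that of Fgf4, and in paused cells 5.21% of 11006 did.

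The promoter of Fgf4 is shown because it is the member that rose in both conditions, and those of Dusp6 and Spred1, which fell, are shown further on. It covers 250 bases before and 50 bases after the annotated start (chr7:144861136-144861435, plus strand, RefSeq, GRCm38.p6), 5′ to 3′, with capitals marking the ETS core letters GGAA and the GC box letters GGGCGG on either strand. This window of Fgf4 held 2 GC boxes, which 19.5% of 32851 RefSeq promoter windows of this length hold at least as often, and no ETS core, which 96.0% of the windows hold. Both sets of letters were chosen after the sequences were seen.

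Fgf4: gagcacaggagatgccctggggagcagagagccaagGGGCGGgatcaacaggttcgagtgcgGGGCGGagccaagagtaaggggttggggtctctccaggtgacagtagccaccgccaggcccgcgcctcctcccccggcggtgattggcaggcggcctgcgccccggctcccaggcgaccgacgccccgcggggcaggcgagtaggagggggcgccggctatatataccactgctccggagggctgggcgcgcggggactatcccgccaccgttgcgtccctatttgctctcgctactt

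The receptors had smaller changes than the ligand, called in paused cells only but without a called difference between the conditions. Fgfr1, on chromosome 8 (25518759 to 25575718), and Fgfr2, on chromosome 7 (130162451 to 130266808), code for receptor tyrosine kinases. In embryonic stem cells Fgfr1 is known as the main receptor, and Fgfr2 is associated with primitive endoderm. Fgfr1 had a mean of 4740 normalized counts in the authors' deposited table of control cells, where its change was -0.10 (SE 0.05, adjusted p 0.104) and was not called. It fell in the authors' deposited table of paused cells by 0.26 (SE 0.07, adjusted p 4.41e-04, mean count 3253), leaving 83.6% of the wild-type level. Fgfr2 had a change of 0.01 (SE 0.09, adjusted p 0.973, mean 2549 normalized counts) in the authors' deposited table of control cells. It fell by 0.32 (SE 0.10, adjusted p 0.00557, mean 1810 normalized counts) in the authors' deposited table of paused cells, to 80.1% of the wild-type level. Both receptors thus passed the threshold in paused cells alone, but the difference between conditions did not pass it for either: it was -0.16 (SE 0.08, adjusted p 0.409) for Fgfr1 and -0.32 (SE 0.14, unadjusted p 0.0175, adjusted p 0.251) for Fgfr2. Neither paused fall passed when tested for a change beyond 1.2-fold. An antisense gene, Gm16159, overlaps exons of Fgfr1, and the library kit is directional but the strand setting of the counting is not given in the sources used here; its mean was 4.90 and 4.36 normalized counts in the authors' deposited tables of control and paused cells.

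The ERK phosphatases fell furthest. Dusp6, on chromosome 10 (99263231 to 99267489), codes for a cytoplasmic phosphatase that removes the activating phosphates from ERK, and Dusp4, on chromosome 8 (34807610 to 34819894), for a nuclear one. Dusp6 had means of 2271 and 2425 normalized counts for the respective conditions in the authors' deposited tables. It fell by 1.17 (SE 0.14, adjusted p 1.99e-16) in the authors' deposited table of control cells, to 44.3% of the wild-type level. For paused cells the authors' deposited table gave a fall by 1.14 (SE 0.16, adjusted p 6.97e-12), to 45.3%. The paused change minus the control change of Dusp6 was 0.03, with a 95% interval from -0.38 to 0.44.

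Dusp4 had the largest change of the 10 genes in control cells. It fell by 1.33 (SE 0.21, adjusted p 2.31e-09, mean 1335 normalized counts) in the authors' deposited table of control cells, to 39.8% of the wild-type level. The authors' deposited table of paused cells gave a smaller fall, of 0.75 (SE 0.15, adjusted p 7.04e-06, mean count 3386), leaving 59.5%. The change of Dusp4 was 0.58 higher in paused cells (SE 0.26, 95% interval 0.08 to 1.08), which did not pass the threshold over all genes (unadjusted p 0.0238, adjusted p 0.290). Its SE in control cells was the largest of the 10 genes; whether the knockout lines differ in Dusp4 cannot be read from these tables. Falls of at least 2-fold were called for 2 of the 10 genes in control cells, Dusp4 and Dusp6, and for 1 in paused cells, Dusp6, against 2.52% and 2.21% of all genes. Among genes above the abundance minimum, 0.491% in control cells had fallen at least as far as Dusp4 and 0.621% as far as Dusp6, and in paused cells 1.82% and 0.709%.

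The Dusp6 window (chr10:99262981-99263280, plus strand, RefSeq, GRCm38.p6) held 6 ETS cores and no GC box. It is shown because Dusp6 fell by more than any other member in paused cells, with capitals as for Fgf4; the median window of all promoters holds 3 ETS cores. No longer ETS letters (CCGGAAG or CAGGAAG), cyclic AMP response element (TGACGTCA) or SMAD box (GTCTAGAC) was found in it on either strand, and these are held by 8.86%, 13.3%, 1.79% and 0.213% of the windows, in that order.

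Dusp6: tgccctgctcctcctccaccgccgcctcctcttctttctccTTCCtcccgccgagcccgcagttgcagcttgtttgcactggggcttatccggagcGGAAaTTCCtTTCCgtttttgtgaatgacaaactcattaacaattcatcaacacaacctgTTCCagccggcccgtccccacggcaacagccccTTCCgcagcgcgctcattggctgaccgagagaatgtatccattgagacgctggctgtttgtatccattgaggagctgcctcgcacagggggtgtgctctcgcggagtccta

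Among Spry2, Spry4 and Spred1, which code for membrane-associated inhibitors of RAS and RAF activation, Spred1, on chromosome 2 (117121071 to 117182279), fell most. Its fall in the authors' deposited table of control cells was 0.57 (SE 0.10, adjusted p 3.86e-08, mean count 3150), leaving 67.3% of the wild-type level. With INK128 Spred1 fell by 0.51 (SE 0.08, adjusted p 2.26e-09, and a mean of 3602 normalized counts) in the authors' deposited table, to 70.1%. Spry2, on chromosome 14 (105891947 to 105896819), fell less. It fell by 0.33 (SE 0.06, adjusted p 2.99e-06, mean 5744 normalized counts) in the authors' deposited table of control cells, to 79.8% of the wild-type level. Its fall in the authors' deposited table of paused cells was 0.22 (SE 0.07, adjusted p 0.00435, mean count 8141), leaving 85.9%. Neither fall of Spry2 passed when tested for a change beyond 1.2-fold.

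Spry4 did not follow Spry2 and Spred1. Its change was 0.01 (SE 0.09, adjusted p 0.920, mean 4964 normalized counts) in the authors' deposited table of control cells. It rose by 0.17 (SE 0.07, adjusted p 0.0226, mean 11807 normalized counts) in the authors' deposited table of paused cells, a 1.13-fold change that was not called at an adjusted p under 0.01 or for a change beyond 1.2-fold. The difference between the conditions did not pass the threshold for any of these genes: it was 0.06 (SE 0.13, adjusted p 0.915) for Spred1, 0.11 (SE 0.09, adjusted p 0.710) for Spry2 and 0.16 (SE 0.12, adjusted p 0.618) for Spry4.

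The Spred1 window (chr2:117120821-117121120, plus strand, RefSeq, GRCm38.p6) is shown because Spred1 fell in both conditions and, after Dusp6, by the most among members with a window. It held 5 ETS cores, where the median is 3, and 3 GC boxes, a number that 10.7% of all windows reach, and none of the 4 longer motifs. At least 3 ETS cores are held by 66.3% of all windows, and the share with 5 or more was not computed. Windows were found for 6 of the 10 genes, and 1 match of the 4 longer motifs was found in them, CAGGAAG in that of Fgfr2. The windows not printed held 5 ETS cores for Spry2 and 4 for Fgfr2, and of the 2 windows of Etv5, 1 held 0 ETS cores and 3 GC boxes and the other held 6 ETS cores and 0 GC boxes. No relation between these counts and the changes was tested.

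Spred1: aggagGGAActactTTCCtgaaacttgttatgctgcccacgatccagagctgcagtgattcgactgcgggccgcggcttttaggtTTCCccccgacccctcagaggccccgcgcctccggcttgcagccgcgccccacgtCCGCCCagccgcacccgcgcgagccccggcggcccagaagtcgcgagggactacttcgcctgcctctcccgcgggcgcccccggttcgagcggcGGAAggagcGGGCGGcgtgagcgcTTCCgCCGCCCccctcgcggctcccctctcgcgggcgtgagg

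The genes of the PEA3 subfamily of ETS transcription factors had small changes. Etv4 lies on chromosome 11 (101769747 to 101785310). Etv5, on chromosome 16 (22381313 to 22439570), had the highest mean per length of the 10 transcripts. It fell by 0.20 (SE 0.04, adjusted p 1.09e-05, mean 22206 normalized counts) in the authors' deposited table of control cells, to 87.2% of the wild-type level. Under INK128 it fell by 0.16 (SE 0.04, adjusted p 1.12e-04, mean count 18650) in the authors' deposited table, to 89.2%. These small falls rest on its small SE and did not pass for a change beyond 1.2-fold. Etv4 had changes of -0.10 (SE 0.11, adjusted p 0.518, mean 2776 normalized counts) and 0.03 (SE 0.12, adjusted p 0.892, mean 3059 normalized counts) in the authors' deposited tables for control and paused cells. The 95% intervals of Etv4 ran from -0.32 to 0.12 and from -0.21 to 0.26, so changes of the size seen for Dusp4, Dusp6 or Spred1 lie outside them.

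**Figure D2:**
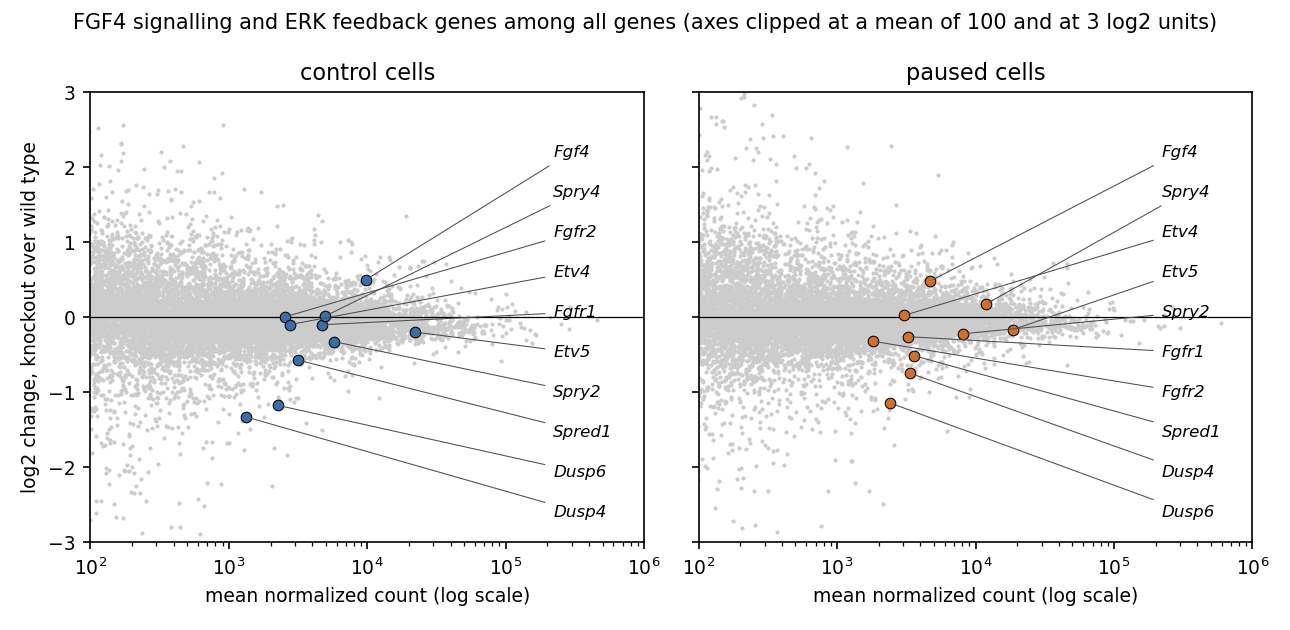
Log2 change (y axis, knockout over wild type) against mean normalized count (x axis, log scale) for genes with a mean of at least 100 and a change within 3 units (grey) and for the 10 genes (coloured, labelled) in control (left) and paused (right) cells of the authors' deposited tables. Dusp4 and Dusp6 lie toward the lower edge of genes with similar means, at -1.33 and -1.17 in control cells, Fgf4 lies toward the upper edge at 0.50, and Etv5 has the highest mean of the 10.

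Whether loss of Smad2 acted differently in paused cells was tested gene by gene as the paused change minus the control change over the combined SE, adjusted over all 19134 genes in both tables. The difference was called for 0 of the 10 genes, against 1.44% of all genes. At an unadjusted p under 0.05 there were 2, Fgfr2 and Dusp4, against 12.9% of all genes. The direction of the change was the same in both conditions for 8 of the 10 genes, all but Fgfr2 and Etv4, each of which was close to 0 in one condition. The share of all genes with the same direction was not computed, and both conditions used the same cell lines. That count is therefore not read as a trait of these genes. The widest interval was that of Dusp4 (0.08 to 1.08) and the narrowest that of Etv5 (-0.08 to 0.14), so how large a difference can be seen varied among the genes.

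The level of these transcripts in each group was then computed, since the deposited mean pools the genotypes. If the 4 wild-type and 8 knockout libraries of a condition all entered its mean with equal weight, the deposited mean and change give a level per genotype. These computed levels carry no error of their own, and levels from the 2 tables, which were normalized separately, are set side by side without a test. Fgf4 then had 7643 normalized counts in wild-type and 10797 in knockout cells of the control condition, with 3693 and 5147 after pausing. The knockout level of Fgf4 in paused cells was thus below the wild-type level in control cells.

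Dusp4 had computed levels of 2230 in wild-type and 888 in knockout control cells, and 4636 and 2761 normalized counts in paused cells. The Dusp4 level of paused knockout cells thus lay above that of wild-type control cells. For Dusp6 the computed levels were 3613 and 1600 without and 3818 and 1728 with INK128, so the knockout levels were the lower ones in both conditions and the levels of the conditions were close. Spry4 had 4930 and 4981 without and 10885 and 12268 with INK128. With 4 knockout libraries in place of 8, the paused over control ratio of wild-type cells went from 2.08 to 2.22 for Dusp4, from 2.21 to 2.25 for Spry4 and from 0.483 to 0.482 for Fgf4.

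Between the deposited means themselves, 6 of the 10 genes had a higher and 4 a lower mean in paused cells. The paused over control ratio of the means in the authors' deposited tables was 2.54 for Dusp4, 2.38 for Spry4 and 1.42 for Spry2. It was 0.478 for Fgf4, 0.686 for Fgfr1 and 0.710 for Fgfr2. Ligand and receptors thus had lower pooled means, and Dusp4 and both Sprouty genes higher ones, under INK128. Among the 10484 genes above the abundance minimum in both tables, 0.906% had a higher ratio than Dusp4, 1.31% a higher ratio than Spry4 and 2.86% a lower ratio than Fgf4, where the median ratio was 1.00. The other 4 ratios were 1.14 for Spred1, 1.10 for Etv4, 1.07 for Dusp6 and 0.840 for Etv5. All these means pool the genotypes. With 8 knockout libraries assumed, the computed ratio of wild-type cells was 0.736 for Fgfr1, 0.820 for Fgfr2 and 1.35 for Spry2.

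**Figure D3:**
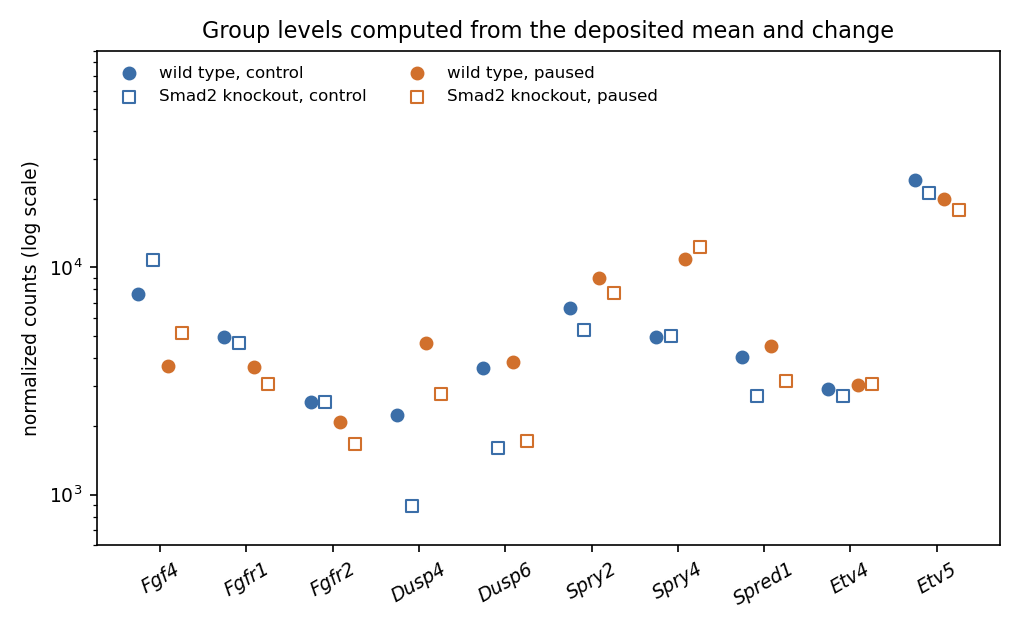
Level of each gene in normalized counts (y axis, log scale) per genotype and condition, computed from the deposited mean and change on the assumption of 4 wild-type and 8 knockout libraries per mean; circles are wild type, open squares knockout, blue control and orange paused. Dusp6 has knockout levels of 1600 and 1728 and wild-type levels of 3613 and 3818, while the Spry4 levels lie further apart between conditions than between genotypes.

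Levels can be compared between genes only per length, taken here as the union of all annotated exons of a gene. This union can exceed the length of the transcript that the cells make. Among the 10 genes, Etv5 had the highest mean per kilobase of annotated exon in the authors' deposited table of control cells. Its mean there was 5622 normalized counts per kilobase, followed by those of Fgf4 (3216) and Spry2 (2752). Spry4 (1059), Etv4 (914), Dusp6 (725) and Dusp4 (550) came next, and Fgfr1 (491), Spred1 (464) and Fgfr2 (255) were lowest. The exon unions of Fgfr1 (9662 bases), Spred1 (6784) and Fgfr2 (10014) were also the longest of the 10. In the authors' deposited table of paused cells the order per kilobase was Etv5 (4721), Spry2 (3901), Spry4 (2519), Fgf4 (1539), Dusp4 (1395), Etv4 (1007), Dusp6 (774), Spred1 (531), Fgfr1 (337) and Fgfr2 (181). Fgf4 was thus in the second place of the order in control cells and in the fourth in paused cells. Without values per library it cannot be said which neighbours in this order differ beyond their spread.

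The rest of the pathway was described through 8 lists with 138 genes, of which 131 were measured in control and 133 in paused cells. Of these, 23 rose and 60 fell in control cells, while 26 rose and 57 fell in the paused condition, by the authors' deposited tables. The called genes were 63.4% and 62.4% of those measured, beside 51.6% and 53.0% of all genes above the abundance minimum, and calls among those abundant genes were also mostly falls, with 36.8% and 38.1% of them higher. Pairs of values below give the control condition first and the paused condition second. Among the lists, the ERK response genes had the lowest medians. These are genes such as the immediate early factors that ERK activity is known to induce, and 16 of 21 fell and 1 rose in the authors' deposited table of control cells (median -0.56). Of the same 21 genes, 13 fell and 2 rose in the authors' deposited table of paused cells (median -0.66). Epha2, which codes for an ephrin receptor kinase, fell in both of the authors' deposited tables, with changes of -0.98 (SE 0.09) and -0.95 (SE 0.09). Zfp36, coding for an mRNA decay factor, fell in both of the authors' deposited tables (-1.12, SE 0.12, and -0.68, SE 0.10). Fosl2, coding for a FOS family factor, fell in both of the authors' deposited tables (-1.46, SE 0.36, and -1.49, SE 0.36). So did the early growth response gene Egr1 (-0.82, SE 0.25, and -1.02, SE 0.26 in the authors' deposited tables).

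Of the 18 other inhibitors of the pathway, 11 fell and 2 rose in control cells (median -0.33) and 8 fell and 2 rose in the paused condition (median -0.20), by the authors' deposited tables. The share of these inhibitors called in paused cells lies near the 53.0% of abundant genes called there. In control cells, where 51.6% of abundant genes were called, the share of these inhibitors called was higher. Pea15a, which codes for a protein that holds ERK in the cytoplasm, fell in both of the authors' deposited tables (-0.94, SE 0.13, and -0.78, SE 0.17). Spred3, a relative of Spred1, also fell in both of the authors' deposited tables (-0.81, SE 0.10, and -0.20, SE 0.06). Dusp14, coding for a small dual-specificity phosphatase, had falls in the authors' deposited tables of -0.87 (SE 0.32) and -2.00 (SE 0.39). Dusp9, coding for another ERK phosphatase, went the other way (mean 11952 normalized counts in control cells). Its rises in the authors' deposited tables were 0.73 (SE 0.07) and 0.85 (SE 0.07).

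Of the other FGF ligands measured, 6 of 14 fell and 2 rose in control cells (median -0.33) and 5 of 16 fell and 2 rose in the paused condition (median -0.15), by the authors' deposited tables. Over all genes 19.5% rose and 21.9% fell in control cells, and 20.5% rose and 22.0% fell in paused cells. The share of ligands called in paused cells lies near that of all genes. Fgf5, a marker of the formative epiblast, fell in both of the authors' deposited tables (-2.61, SE 0.28, and -2.63, SE 0.31). Ligands of the Fgf8 subfamily fell as well: Fgf17 had changes in the authors' deposited tables of -0.96 (SE 0.09) and -0.99 (SE 0.09), and Fgf18 of -0.77 (SE 0.15) and -0.83 (SE 0.18). Fgf3 rose in both of the authors' deposited tables (0.96, SE 0.13, and 1.10, SE 0.16). Of the 10 other receptors and co-receptors, 4 rose and 4 fell in control cells (median 0.21) and 3 rose and 1 fell in the paused condition (median 0.12). The share of these genes called in paused cells also lies near that of all genes. Fgfbp1, which codes for a protein that carries FGFs away from heparan sulfate, fell in both of the authors' deposited tables (-1.39, SE 0.09, and -1.58, SE 0.12). The receptor gene Fgfr3 had changes in the authors' deposited tables of 1.00 (SE 0.14), a rise, and 0.26 (SE 0.12, adjusted p 0.0785), not called. Flrt2 rose in both of the authors' deposited tables (0.58 and 0.36), and Flrt3 had changes of -0.39, a fall, and -0.06, not called.

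Heparan sulfate genes, whose products present FGFs to their receptors, had 9 of 22 members lower and 4 higher in control cells (median -0.09), and 12 lower and 4 higher in the paused condition (median -0.24), by the authors' deposited tables, so that the 13 called in control cells lie near the share of abundant genes. Sulf1, which codes for an enzyme that trims sulfate from heparan sulfate, fell in both of the authors' deposited tables (-0.95, SE 0.09, and -1.31, SE 0.10). The sulfotransferase gene Hs6st2 had falls in the authors' deposited tables of -2.10 (SE 0.21) and -1.96 (SE 0.23). Smaller falls in the authors' deposited tables were those of Extl2 (-0.53 and -0.33) and the syndecan gene Sdc2 (-0.48 and -0.49).

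For the signalling steps between receptor and ERK, the counts in control cells and that of the adaptors in paused cells lie near or below the 51.6% and 53.0% of abundant genes called. Of 14 receptor adaptors 4 rose and 3 fell in control cells (median 0.05) and 2 rose and 4 fell in the paused condition (median 0.01), by the authors' deposited tables. The docking protein gene Gab2 rose by 2.03 (SE 0.24) and 2.09 (SE 0.16) with means of 117.3 and 245.5 normalized counts in the authors' deposited tables. Shc1 (-0.28 and -0.31) and Ptpn11 (-0.29 and -0.12) fell in both of the authors' deposited tables, and Frs3 had changes of 0.31, a rise, and 0.14, not called. Of the 19 genes of the RAS to ERK cascade, 2 rose and 7 fell in control cells (median 0.00) and 6 rose and 8 fell in the paused condition (median -0.02), by the authors' deposited tables. The RAS genes Rras2 (-0.49 and -0.67) and Nras (-0.38 and -0.26) fell in both of the authors' deposited tables, while the scaffold gene Ksr1 rose (0.44 and 0.39). Of 13 ETS and related factors 4 rose and 4 fell in control cells (median -0.01) and 5 rose and 6 fell in the paused condition (median -0.15), by the authors' deposited tables. Ets1 (-1.08 and -1.32) and Etv6 (-0.34 and -0.21) fell in both of the authors' deposited tables, and the repressor gene Erf rose (0.46 and 0.28). Elk3 had changes in the authors' deposited tables of -0.41, not called, and -0.69, a fall.

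**Figure D4:**
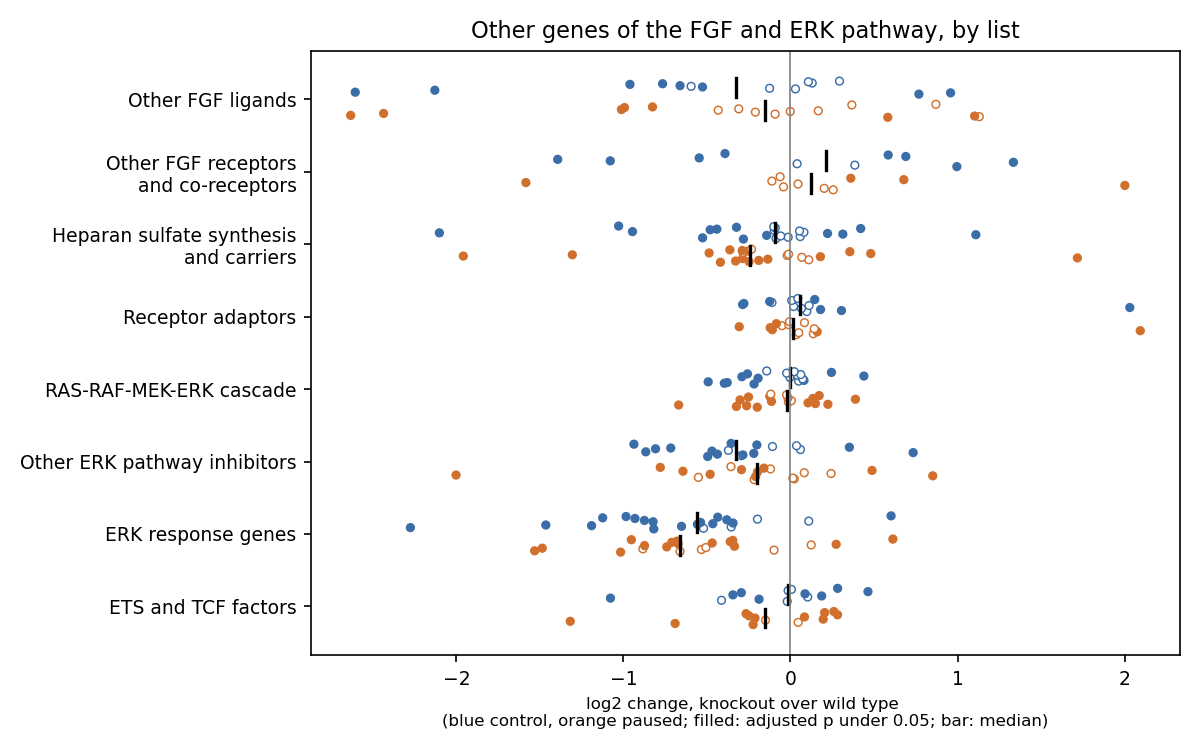
Log2 change (x axis, knockout over wild type) of each measured gene of the 8 pathway lists in the authors' deposited tables, blue for control and orange for paused cells; filled points have an adjusted p under 0.05 and the black bar is the list's median. The ERK response genes have medians of -0.56 and -0.66, and the medians of the adaptors and of the RAS to ERK cascade lie within 0.06 of 0.

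The label of embryonic stem cells was checked against marker genes, whose counts stand beside 19.5% of all genes higher and 21.9% lower in control cells and 20.5% and 22.0% in the paused condition. All 8 pluripotency markers were present with means of at least 11866 normalized counts in either of the authors' deposited tables; 1 rose and 2 fell in each condition. Primitive endoderm markers, from a lineage that depends on FGF4, had 8 of 9 higher in each condition (medians 1.01 and 0.96) and summed means of 9086 and 10566 normalized counts for the respective conditions in the authors' deposited tables. Much of that sum is Col4a1 and Lama1, while Gata6 had means of 82.6 and 114.5 and Sox17 of 41.1 and 41.9 in the authors' deposited tables. Mesendoderm markers had 4 of 5 lower and 1 higher in control cells (Gsc, named after its values were seen, 0.78, adjusted p 0.00345, in the authors' deposited table) and 3 of 5 lower and 0 higher in paused cells, with summed means of 913 and 729 normalized counts. Markers of cells resembling the 2-cell embryo had 5 of 6 higher in control and 4 of 6 higher in paused cells, with summed means of 36353 and 12912 in the authors' deposited tables. Of trophectoderm markers 2 of 7 rose and 1 fell in each condition, and of neuroectoderm markers 1 of 5 rose and 2 fell in each; the 3 of 7 called trophectoderm markers lie near the share of all genes. Fibroblast markers, for cells that can serve as feeders, had 4 of 7 lower in control and 3 of 6 lower in paused cells, with summed means of 1123 and 1163. Mesp1 and Neurog2 were in neither table and Dcn was in the control table alone. The part of these shifts in the changes of the FGF and ERK genes was not tested.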

How the data were processed

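Poly(A) RNA of 24 libraries was grouped by genotype and treatment from the titles. The submitters' processing notes name FastQC, Trim Galore, HISAT2, featureCounts, DESeq2 and mm10, without versions or settings; annotation, strand setting and the libraries in each contrast are not given in the sources used here. Per the file headers, the authors deposited for each condition a mean normalized count (a signal averaged over libraries), a log2 fold change and its SE on the log2 scale, a statistic (a score) and a p-value with its adjusted p-value. The statistic was checked to be the change over its SE, and the adjusted p to be the Benjamini-Hochberg value over the table, with 0 exceptions. In control cells 2 genes had no p. The design assumed these deposited tests; no count test was possible without counts, and depth is unknown.

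The difference between conditions used a normal test on the deposited changes, adjusted over all genes. In simulated data it recovered 70.0% of 2-fold differences, and 4.11% of its calls were false. The simulation drew normal errors from the same deposited SE, so it cannot show whether those SE are too small. In the real data the middle spread of the score was 1.23 times that of a standard normal variable. Intervals are 95% normal intervals from the deposited SE. Exon lengths were the union of GENCODE M21 exons within RefSeq gene bounds, found for 87.8% and 87.2% of symbols. Promoters were RefSeq windows of GRCm38.p6, the assembly that mm10 names; GGAA and GGGCGG were added to the motifs after the sequences were seen. Members, lists and tests were chosen with earlier results of these data known. Pathway genes were named by a rule: at most 4 per list, the largest called changes with a mean of at least 100; 1 gene so chosen is not reported here. Alternatives were an adjusted p under 0.01, a minimum change of 1.2-fold or 2-fold, a scaled statistic, other centrings and the abundance minimum of 5 ppm. Python 3.11.15, numpy 2.4.6, scipy 1.17.1, pandas 2.3.3 and matplotlib 3.10.9 were used.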

Additional observations from a re-analysis of the deposited data

Results flagged for a closer look

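A difference in the effect of Smad2 loss between the conditions was called for 3 of the 130 pathway genes measured in both tables, a share near the 1.44% of all 19134 genes, by the test of the difference itself adjusted over all genes, and for 0 of the 10 FGF4 and ERK feedback genes. For Fgfr3 the change in paused minus that in control cells was -0.74 (SE 0.19, adjusted p 0.0118). For the syndecan gene Sdc1, whose changes in the authors' deposited tables were -0.10, not called, in control and 0.48, a rise, in paused cells, it was 0.58 (adjusted p 0.0191). For Spred3, a relative of Spred1, it was 0.61 (SE 0.12, adjusted p 2.41e-04).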

How the results depend on the processing

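Of the calls among the 10 genes, 6 in control and 9 in paused cells, requiring a change beyond 1.2-fold left 4 in each, namely Fgf4, Dusp4, Dusp6 and Spred1; a change of at least 2-fold left 2 and 1; and the statistic scaled to its middle spread left 0 and 0. The 83 pathway genes called in each condition became 31 and 29 with the 1.2-fold test and 8 and 9 with the scaled statistic. Equal summed counts and a median of 0 for abundant genes changed no call of the 10 genes, although over all genes the share of calls that were higher went from 47.1% to 60.5% and 60.1% in control and from 48.2% to 57.6% and 60.9% in paused cells. The difference was called for 0 of the 10 genes under each alternative. No paired analysis was possible because the tables hold no value per library; for the same reason leaving out a replicate, another count tool and each knockout line alone were not run.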
